A study of Mus musculus with 47 samples.

Results

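Interferon-stimulated genes are the genes that cells switch on when an interferon reaches its receptor, and 41 of them were followed here in the small intestine of mice, in crypts and in villi. The genes were listed by name, as well-known interferon targets, with earlier results of these data known. Each was read through probe sets that carry its symbol alone in the array's annotation. Of the 41, 39 had such a probe set (Isg15 and Ifi44 had none), and 38 gave a value on at least 1 array, since the probe set of Mx2 was blank throughout. They are 38 of 15189 genes measured. Values were present on all 47 arrays for 20 of them.

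RNA had been hybridised to an Affymetrix mouse expression array, 1 sample per array. All mice were C57BL/6. In the genetic arm, mice aged 3 months and fed the purified diet Ain76A were of 3 genotypes, namely wild type, Apc1638N/+ (1 mutant copy of the Wnt pathway brake Apc) or p21-/- (no functional copy of Cdkn1a, the cell cycle inhibitor p21). In the diet arm, wild-type mice aged 1 year had eaten Ain76A, NWD1 or NWD2 for 1 year from weaning, the NWD diets being purified diets modelled on Western intake of selected nutrients. Crypts and villi of each of these 6 kinds of mice form 12 groups of 4 arrays, 3 in villi on NWD2. The labels do not say whether the replicates were separate mice, whether animals were pooled, or how crypts and villi were parted, so p-values measure only the spread between these samples. Wild-type mice at 3 months served as controls for both genotypes, and mice on Ain76A at 1 year served as controls for both NWD diets.

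Interferons come in families. Type I (alpha and beta) and type III (lambda) interferons signal through Jak1 and Tyk2 to a complex that holds Stat2 and Irf9 and binds interferon-stimulated response elements in target promoters, while interferon gamma signals through Jak1 and Jak2. The target genes sense foreign nucleic acid, degrade or sequester viral RNA, attach the ubiquitin-like protein Isg15 to other proteins, or feed back on the signal. In the gut the epithelium answers mainly to lambda interferons, and many of these genes have a resting level there that depends on the microbiota.

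Promoter sequence was available for 33 of the 41 genes in RefSeq's annotation of the build GRCm38.p6. A stretch of 250 bases before each annotated start was searched on both strands for the core of the response element, GAAA followed by any 2 bases and GAAA again, with overlapping matches counted. It occurred in 10 of the 33 genes (30.3%) and in 936 of all 27025 genes of the table (3.46%). The gamma-activated motif TTCNNNGAA occurred in 5 of the 33 (15.2%) and in 8.13% of all genes. The 10 genes with the response element core were Stat2, Oas1a, Oas3, Ifit1, Ifit3, Isg15, Trim30a, Cxcl10, Rsad2 and Bst2. A match is a description of these letters and not evidence of binding. The sequences of 5 of them are shown for the reasons that follow. Ifit1 had the largest villus to crypt estimate of any member, and Stat2 is part of the complex that binds the element. Oas1a, Rsad2 and Trim30a fell in villi on NWD2, as did Oasl1, which held no match, and Usp18, which had no promoter sequence available. Each sequence shown is written 5′ to 3′ along its own gene, ending just before the start, with matches in capitals. They lie at chr19:34640639-34640888 (plus strand) for Ifit1, chr10:128270248-128270497 (plus) for Stat2, chr5:120907526-120907775 (minus) for Oas1a, chr12:26456453-26456702 (minus) for Rsad2 and chr7:104465194-104465443 (minus) for 1 of the 2 starts of Trim30a.
Ifit1: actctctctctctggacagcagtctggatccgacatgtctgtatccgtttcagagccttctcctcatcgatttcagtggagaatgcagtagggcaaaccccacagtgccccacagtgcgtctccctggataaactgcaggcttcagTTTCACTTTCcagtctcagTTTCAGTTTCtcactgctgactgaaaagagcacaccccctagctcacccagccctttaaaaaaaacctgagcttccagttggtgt
Stat2: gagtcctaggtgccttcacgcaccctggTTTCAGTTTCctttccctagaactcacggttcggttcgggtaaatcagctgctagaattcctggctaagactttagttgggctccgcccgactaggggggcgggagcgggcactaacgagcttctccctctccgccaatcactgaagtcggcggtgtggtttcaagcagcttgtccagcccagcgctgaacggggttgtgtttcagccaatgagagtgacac
Oas1a: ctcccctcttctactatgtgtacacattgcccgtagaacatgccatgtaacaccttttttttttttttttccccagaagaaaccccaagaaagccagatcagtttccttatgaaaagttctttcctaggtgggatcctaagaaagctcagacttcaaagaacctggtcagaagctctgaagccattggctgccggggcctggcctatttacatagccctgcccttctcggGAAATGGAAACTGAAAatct
Rsad2: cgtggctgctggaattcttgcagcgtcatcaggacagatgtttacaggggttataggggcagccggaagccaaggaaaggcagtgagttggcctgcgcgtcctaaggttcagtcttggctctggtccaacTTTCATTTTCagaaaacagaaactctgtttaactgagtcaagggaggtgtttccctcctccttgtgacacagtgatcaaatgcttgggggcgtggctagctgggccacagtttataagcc
Trim30a: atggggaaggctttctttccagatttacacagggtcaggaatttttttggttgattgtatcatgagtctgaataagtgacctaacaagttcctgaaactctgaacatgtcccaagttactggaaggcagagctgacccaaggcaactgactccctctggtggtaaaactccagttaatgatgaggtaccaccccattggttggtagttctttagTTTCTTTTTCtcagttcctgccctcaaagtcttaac
Ifit1 and Oas1a each held 2 matches, which stand apart in Ifit1 and overlap in Oas1a next to the start. The other 3 held 1 each.

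Levels are normalized log2 signals, and blanks, whose reason no source used here gives, were left blank. Between 14814 and 23355 probe sets carried a value on an array. A gene was tested in a comparison when at least 3 arrays of each group measured it, and it was called, or said to have risen or fallen, at an adjusted p under 0.05 in limma after Benjamini-Hochberg adjustment over all genes tested. Differences are log2 differences ± SE. The labelled tissues matched their markers: of 12 to 18 proliferation genes tested in each kind of mouse, all were called lower in villi but for 1 in wild type and 1 on NWD2, and Paneth cell genes were called lower in villi with the exception of 1 on NWD2. Enterocyte genes were called higher in villi for 18 of 18 on Ain76A at 1 year, but for 8 of 18 in wild type at 3 months and 3 of 18 on NWD2. A tissue marker score, the mean of crypt markers minus that of villus markers, placed crypt arrays 2 and 4 of wild-type mice (-2.39 and -2.33) and the crypts on NWD2 (-1.26 to -3.53) nearer to villi (-4.07 to -6.29 on all 23 villus arrays) than the crypts on Ain76A at 1 year (-0.73 to 0.44). Other crypt arrays also reached below those on Ain76A at 1 year. Crypts on NWD1 ran from -1.68 to -0.36, those of Apc1638N/+ from -1.62 to -0.06 and those of p21-/- from -1.94 to -0.41. Wild-type crypt array 3 had a score of -1.34. One probe set of Cdkn1a, the gene missing in p21-/- mice, had a value on 0 of their 8 arrays and on all 39 others. Its other probe set had a value on 8 of their 8 arrays and on all 39 others, and since the positions of the probe sets against the deleted part were not used here, the genotype is taken from the labels.

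In each of the 6 kinds of mice, every interferon-stimulated gene that passed the test was higher in villi than in crypts, with the exception of Ifitm3, which was lower. In wild-type mice at 3 months 27 of the 30 members tested were called higher in villi, 1 was called lower and 2 did not pass, with a median difference of 1.91. Over all 7852 genes tested, 25.6% were called higher in villi and the median was 0.11. In Apc1638N/+ mice 23 of 28 were higher in villi (20.1% of all genes), with a median of 1.53. Of 29 tested in p21-/- mice, 25 were higher (22.4% of all genes), with a median of 1.34. Of 29 tested on Ain76A at 1 year, 25 were higher (25.7% of all genes), with a median of 1.97. On NWD1 25 of 30 were higher (19.7% of all genes), with a median of 1.39. On NWD2 14 of 31 were higher (5.04% of all genes), with a median of 0.78. The median over all genes lay between -0.01 and 0.11 in these comparisons. For the lower direction, taken by Ifitm3, 20.3%, 20.9%, 23.4%, 26.8%, 21.8% and 7.60% of all genes were called lower in the same order. Every villus array lay above every crypt array for 24 members in wild type (18.2% of all genes), 21 in Apc1638N/+ (12.5%), 23 in p21-/- (14.6%), 26 on Ain76A at 1 year (28.9%), 25 on NWD1 (26.0%) and 22 on NWD2 (15.6%). In a bulk sample, fewer cells of a type and less RNA per cell cannot be told apart. On the deposited scaling 1513 genes were called higher and 1899 lower in wild-type villi, against 2011 and 1592 after quantile normalization, and 363 and 993 on NWD2, against 448 and 675, while the member counts were 26 higher and 1 lower in wild type and 13 and 1 on NWD2. A setting chosen after seeing the data left out the 2 wild-type crypt arrays nearest to villi. There 26 of 28 members were higher in wild-type villi and 1 was lower. The NWD2 count, 15 in both directions, was 4 without villus array 3, 5 without crypt array 1 and 6 without villus array 2.

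Of the 25 members tested in all 6 comparisons, 11 were called higher in villi in every one: Ifih1, Oasl1, Oasl2, Ifit1, Parp9, Dtx3l, Parp12, Parp14, Samd9l, Ifi35 and Rtp4. That is 44% of them, beside 219 of the 6594 genes tested in all 6 (3.32%). A further 9 were called in 5 of the 6, all missing on NWD2 only: Irf9, Irf7, Usp18, Trim25, Trim30a, Rsad2, Cmpk2, Xaf1 and Sp100. Members that passed in few comparisons were Oas1a (4 of 6), Irf1 (2 of 6) and Eif2ak2 (2 of 6), and Lgals3bp passed in none. With the replicate number as a block, Ifi35 (adjusted p = 0.0868) and Ube2l6 (adjusted p = 0.0660) did not pass on NWD2. On the deposited scaling Ifi35 did not pass there either (adjusted p = 0.153 in limma). Of the 11, leaving out 1 array ended the NWD2 call of Ifi35 in 6 of 7 fits and that of Parp9 in 4. The NWD2 calls of Ifih1, Oasl1 and Dtx3l ended in 3 fits each, that of Rtp4 in 2 and that of Samd9l in 1. Those of Oasl2, Ifit1, Parp12 and Parp14 held in all 7. Of the 11 genes called in all 6, Ifit1 held the response element core, 7 held none in the window searched, and 3 had no promoter in the table.

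**Figure D1:**
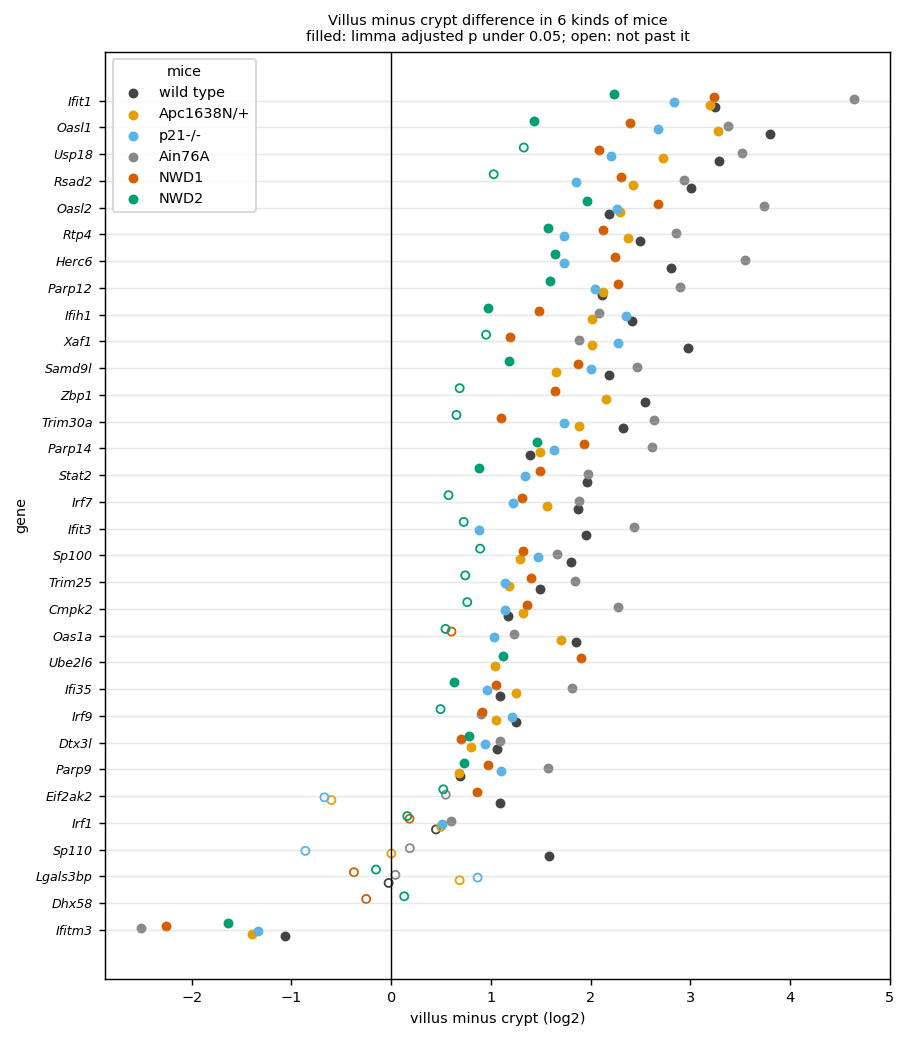
Log2 villus minus crypt difference (horizontal axis) of each interferon-stimulated gene tested (rows), with 1 coloured point for each of the 6 kinds of mice; filled points passed limma's adjusted p under 0.05 and open points did not. Nearly all points lie right of 0, up to 4.64 for Ifit1 on Ain76A at 1 year, and those of Ifitm3 lie left of 0 in all 6.

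Of the transcription factors of the interferon response, Stat2 was higher in villi in all 5 comparisons that tested it, Irf9 and Irf7 in all but NWD2, and Irf1 in 2 of 6. Stat2, the partner of Irf9 in the type I and type III response, read 7.68, 8.05, 7.90 and 7.85 on the wild-type crypt arrays at 3 months and 10.00, 9.41, 10.24 and 9.68 on the villus arrays (1.96 ± 0.22, adjusted p = 5.35e-09). On NWD1 it read 7.87, 7.78, 7.48 and 7.71 in crypts and 8.85, 8.78, 9.72 and 9.45 in villi (1.49 ± 0.22, adjusted p = 1.41e-06). Every villus array lay above every crypt array in both comparisons. The gene was not tested in Apc1638N/+ mice, where 2 of 4 crypt arrays were blank. Irf9, which gives the complex its DNA contact, differed by 1.25 ± 0.24 in wild type and 0.90 ± 0.24 on Ain76A at 1 year. Irf7, which amplifies interferon production, differed by 1.87 ± 0.34 and 1.89 ± 0.34. Irf1, a factor of the gamma response, passed in p21-/- mice (0.51 ± 0.22, adjusted p = 0.0496) and on Ain76A at 1 year (0.60 ± 0.22, adjusted p = 0.0181), and its estimates in the other 4 lay between 0.16 and 0.50.

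Among the sensors of foreign nucleic acid, Ifih1, which encodes Mda5, a detector of long double-stranded RNA, read 10.50, 10.28, 10.01 and 10.81 in wild-type crypts and 13.08, 13.27, 13.24 and 11.65 in wild-type villi (2.41 ± 0.26, adjusted p = 3.01e-09). It read 10.32, 10.88, 10.19 and 10.65 in crypts and 12.13, 12.77, 11.92 and 13.26 in villi of Apc1638N/+ mice (2.01 ± 0.26, adjusted p = 1.78e-07). In p21-/- mice it read 9.99, 10.16, 9.89 and 9.71 in crypts and 12.65, 12.68, 12.19 and 11.65 in villi (2.35 ± 0.26, adjusted p = 4.67e-09). The groups did not overlap in these 3 kinds of mice, and villus array 4 was the lowest villus array in wild type and p21-/-. Zbp1, a sensor of left-handed nucleic acid that can trigger cell death, was higher in villi in 3 of the 4 comparisons in which it was tested, by 2.54 ± 0.45 in wild type. Dhx58, which encodes the related helicase Lgp2, was measured on 10 of 24 crypt and 13 of 23 villus arrays, and passed in neither of its 2 tests.

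The oligoadenylate synthetase family makes short chains of adenylate that switch on the ribonuclease RNase L. Its members Oasl1 and Oasl2 are synthetase-like proteins, and Oasl1 restrains translation of Irf7. Oasl1 read 8.71, 10.13, 9.88 and 9.32 in wild-type crypts and 13.98, 13.60, 13.25 and 12.42 in villi (3.80 ± 0.35, adjusted p = 1.08e-10, 13.9-fold). In Apc1638N/+ mice it read 9.29, 9.54, 9.37 and 9.33 in crypts and 11.66, 12.43, 13.18 and 13.38 in villi (3.28 ± 0.35, adjusted p = 5.31e-09). No crypt array reached the lowest villus array in either. Oasl1 in p21-/- mice read 9.99, 9.82, 9.62 and 9.91 in crypts and 13.15, 13.12, 11.60 and 12.16 in villi (2.67 ± 0.35, adjusted p = 1.21e-07). On Ain76A at 1 year it read 9.25, 9.11, 9.57 and 8.94 in crypts and 12.06, 12.13, 13.01 and 13.19 in villi (3.38 ± 0.35, adjusted p = 3.77e-10). Again the tissues did not overlap.

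Oasl2 showed the same order of tissues, with its largest estimate in the diet controls. It read 7.99, 8.80, 8.74 and 8.82 in crypts and 11.55, 12.05, 12.59 and 13.10 in villi on Ain76A at 1 year (3.74 ± 0.35, adjusted p = 3.55e-11). On NWD1 it read 8.40, 8.17, 8.38 and 8.12 in crypts and 10.56, 10.54, 11.67 and 11.00 in villi (2.67 ± 0.35, adjusted p = 2.00e-07). On NWD2 it read 8.24, 8.96, 9.65 and 8.79 in crypts and 10.27, 10.93 and 11.41 in villi (1.96 ± 0.38, adjusted p = 6.40e-04). The tissues did not overlap on any of these diets. In Apc1638N/+ mice Oasl2 read 9.09, 9.64, 9.31 and 9.41 in crypts and 11.38, 11.88, 11.39 and 11.99 in villi (2.30 ± 0.35, adjusted p = 1.72e-06). In p21-/- mice it read 8.45, 10.14, 9.05 and 9.66 in crypts and 11.60, 12.15, 11.58 and 11.04 in villi (2.26 ± 0.35, adjusted p = 1.62e-06). The tissues were apart on every array here too. Oas1a, an active synthetase, passed in the 3 genotypes and on Ain76A at 1 year, between 1.03 and 1.85, and had differences of 0.60 ± 0.29, adjusted p = 0.0905 on NWD1 and 0.54 ± 0.31, adjusted p = 0.260 on NWD2.

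The remaining synthetases, Oas2 and Oas3, and Ifit2 were mostly blank in crypts and could not be tested between tissues. Oas3 was measured on 0 of 24 crypt arrays and 14 of 23 villus arrays, where it read 9.38 to 10.89. Ifit2, which binds viral RNA and blocks its translation, was measured on 0 of 24 crypt arrays and 19 of 23 villus arrays. Oas2 was measured on 6 of 24 crypt arrays and 19 of 23 villus arrays. Of the 15189 genes, 12 (0.0790%) were blank on every crypt array and measured on 14 or more villus arrays, and 19 (0.125%) showed the opposite. The cutoff of 14 equals the villus count of Oas3, so Oas3 and Ifit2 are among the 12 by construction. Within villi, Oas3 was measured on 4 of 4 arrays on Ain76A at 1 year (9.89, 10.05, 10.81 and 10.89), on 2 of 4 on NWD1 (9.67 and 9.80) and on 0 of 3 on NWD2. Ifit2 was measured on 4, 2 and 1 of these arrays, and Oas2 on 4, 2 and 1. The NWD arrays thus carried fewer values of these 3 genes than the Ain76A arrays. No level is implied by a blank.

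Ifit1, which seizes RNA that lacks the host's cap modification, had the largest single estimate of any member. On Ain76A at 1 year it read 7.10, 7.96, 7.95 and 7.38 in crypts and 11.82, 11.79, 12.36 and 13.01 in villi (4.64 ± 0.45, adjusted p = 6.74e-11, 25.0-fold). In Apc1638N/+ mice it read 8.36, 9.27, 8.27 and 8.97 in crypts and 11.47, 12.23, 11.54 and 12.43 in villi (3.20 ± 0.45, adjusted p = 4.79e-07). The lowest villus array was above the highest crypt array in both. On NWD1 Ifit1 read 7.77, 7.56, 7.50 and 6.48 in crypts and 10.07, 9.85, 12.04 and 10.29 in villi (3.23 ± 0.45, adjusted p = 5.04e-07). On NWD2 it read 7.07, 8.08, 9.02 and 8.16 in crypts and 10.11, 10.47 and 10.36 in villi (2.23 ± 0.48, adjusted p = 0.00177). Here too the tissues were apart. The difference between the NWD2 and Ain76A estimates of Ifit1 did not pass (-2.41 ± 0.66, adjusted p = 0.0607). Ifit3, its neighbour on chromosome 19, was higher in villi in wild type (1.95 ± 0.32), p21-/- (0.88 ± 0.35) and Ain76A at 1 year (2.43 ± 0.35) and did not pass on NWD2 (0.73 ± 0.37, adjusted p = 0.201).

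Of the 4 or 5 genes of Isg15 conjugation and ubiquitin ligation tested in each kind of mouse, all were called higher in villi except on NWD2, where Ube2l6 and Herc6 were called out of 5. Usp18, which strips Isg15 from proteins and damps the receptor, differed by 3.29 ± 0.44 in wild type and 3.51 ± 0.44 on Ain76A at 1 year. Herc6, the Isg15 ligase of mice, differed by 2.81 ± 0.49 and 3.55 ± 0.49, and Trim30a, a ubiquitin ligase that restrains innate signalling, by 2.32 ± 0.32 and 2.64 ± 0.32. Trim25, the ligase that activates the RNA sensor Rig-I, ranged from 1.14 to 1.84 in the 5 comparisons it passed.

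The ADP-ribosyltransferases Parp9, Parp12 and Parp14 and the ubiquitin ligase Dtx3l, partner of Parp9, were all called in all 6 comparisons. Parp12, which blocks viral translation, read 9.75, 10.33, 9.75 and 10.45 in wild-type crypts and 12.61, 12.29, 12.19 and 11.66 in wild-type villi (2.12 ± 0.25, adjusted p = 1.09e-08). In Apc1638N/+ mice it read 9.61, 9.50, 9.53 and 10.03 in crypts and 11.85, 12.07, 11.24 and 12.01 in villi (2.12 ± 0.25, adjusted p = 2.35e-08). In p21-/- mice it read 9.48, 10.34, 9.17 and 9.80 in crypts and 11.87, 12.02, 11.71 and 11.38 in villi (2.05 ± 0.25, adjusted p = 2.23e-08). In these 3 kinds of mice the tissues did not overlap. Parp12 on Ain76A at 1 year read 9.42, 9.45, 9.42 and 9.50 in crypts and 12.13, 12.31, 12.17 and 12.75 in villi (2.89 ± 0.25, adjusted p = 9.58e-12). On NWD1 it read 9.53, 9.53, 9.05 and 9.17 in crypts and 11.37, 11.47, 11.76 and 11.77 in villi (2.27 ± 0.25, adjusted p = 1.17e-08). On NWD2 it read 9.24, 9.99, 10.56 and 9.94 in crypts and 10.97, 11.70 and 11.92 in villi (1.60 ± 0.27, adjusted p = 1.40e-04). The crypt arrays on Ain76A were close together, and again no crypt array reached the villi.

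Parp14, a larger enzyme of the same family that modifies interferon signalling, was higher in villi too. In p21-/- mice it read 10.00, 9.98, 10.52 and 9.86 in crypts and 12.10, 11.71, 11.94 and 11.12 in villi (1.63 ± 0.25, adjusted p = 1.49e-06). On Ain76A at 1 year it read 9.10, 9.40, 9.64 and 9.17 in crypts and 11.70, 12.07, 11.75 and 12.26 in villi (2.62 ± 0.25, adjusted p = 5.55e-11). The tissues were apart in both. On NWD1 Parp14 read 9.42, 9.21, 9.09 and 8.96 in crypts and 10.97, 10.86, 11.49 and 11.09 in villi (1.93 ± 0.25, adjusted p = 1.78e-07). On NWD2 it read 8.91, 9.92, 10.51 and 9.75 in crypts and 10.73, 11.34 and 11.64 in villi (1.47 ± 0.27, adjusted p = 4.21e-04). The tissues did not overlap in these 4 comparisons. Parp9 ranged from 0.68 to 1.57 and Dtx3l from 0.70 to 1.10. In wild type Parp9 did not pass on the deposited scaling (adjusted p = 0.0719 in limma). With only the compared groups in the fit, Parp9 and Dtx3l did not pass in Apc1638N/+ mice (adjusted p = 0.103 and 0.0608 in limma). Without villus array 2 of these mice Parp9 did not pass either (0.0502).

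Among the antiviral effectors, Samd9l, a cytoplasmic factor that restricts poxviruses, was called in all 6. It read 9.85, 9.32, 9.33 and 10.21 in wild-type crypts and 11.87, 12.21, 12.11 and 11.27 in wild-type villi (2.19 ± 0.26, adjusted p = 1.16e-08). In p21-/- mice it read 9.49, 9.76, 9.86 and 9.69 in crypts and 11.81, 11.89, 12.05 and 11.09 in villi (2.01 ± 0.26, adjusted p = 6.50e-08). The tissues were fully apart in both. On Ain76A at 1 year it read 9.39, 9.70, 9.21 and 9.29 in crypts and 11.70, 12.10, 11.60 and 12.04 in villi (2.46 ± 0.26, adjusted p = 3.69e-10). On NWD1 it read 9.55, 9.61, 9.73 and 9.21 in crypts and 11.01, 11.18, 11.75 and 11.64 in villi (1.87 ± 0.26, adjusted p = 4.94e-07). On NWD2 it read 9.57, 10.40, 10.90 and 10.31 in crypts and 11.27, 11.41 and 11.76 in villi (1.18 ± 0.28, adjusted p = 0.00372). On NWD2, 3 of 4 crypt arrays lay above every crypt array of Ain76A and NWD1, and all stayed below the villi.

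Xaf1, a promoter of cell death, and Rtp4, a negative regulator of the interferon response, were among the members with the smallest p-values in the genetic arm. Xaf1 read 8.72, 9.08, 9.00 and 9.48 in wild-type crypts and 12.04, 12.25, 12.79 and 11.11 in wild-type villi (2.98 ± 0.36, adjusted p = 1.86e-08). Rtp4 read 9.03, 9.59, 9.39 and 10.03 in crypts and 11.36, 12.26, 11.43 and 12.48 in villi of Apc1638N/+ mice (2.37 ± 0.35, adjusted p = 1.34e-06). Both genes were apart between tissues there. On NWD2 Rtp4 read 8.21, 9.60, 10.34 and 9.44 in crypts and 10.52, 10.93 and 11.46 in villi (1.57 ± 0.38, adjusted p = 0.00498), again without overlap. Rsad2, which encodes viperin, a maker of chain-terminating nucleotides, differed by 3.01 ± 0.46 in wild type and 2.93 ± 0.46 on Ain76A at 1 year but did not pass on NWD2 (1.03 ± 0.50, adjusted p = 0.171). Cmpk2, its neighbouring gene and a mitochondrial nucleotide kinase, differed by 1.17 ± 0.34 and 2.27 ± 0.34. Ifi35 was called in all 6, between 0.63 and 1.81.

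Ifitm3, a membrane protein that blocks entry of viruses into the cell, ran the other way. It read 11.45, 10.17, 11.72 and 10.63 in wild-type crypts and 9.86, 9.88, 9.50 and 10.48 in wild-type villi (-1.07 ± 0.39, adjusted p = 0.0223). On Ain76A at 1 year it read 12.51, 12, 12.95 and 12.75 in crypts and 9.58, 9.68, 10.73 and 10.19 in villi (-2.51 ± 0.39, adjusted p = 7.37e-07). The tissues overlapped in wild type at 3 months and were far apart on Ain76A at 1 year. The differences in the other kinds of mice were -1.39 ± 0.39 in Apc1638N/+, -1.34 ± 0.39 in p21-/-, -2.26 ± 0.39 on NWD1 and -1.63 ± 0.42 on NWD2. The wild-type call of Ifitm3 ended in 3 of 8 fits that left out 1 array, and its NWD2 call in 3 of 7. With only the compared groups in the fit Ifitm3 did not pass on NWD2 (adjusted p = 0.0503 in limma). Lgals3bp, a secreted glycoprotein, had estimates from -0.37 to 0.87 and passed nowhere. Eif2ak2, the RNA-dependent kinase Pkr, had estimates below 0 in Apc1638N/+ (-0.60 ± 0.34, adjusted p = 0.161) and p21-/- (-0.67 ± 0.34, adjusted p = 0.109) and passed above 0 in wild type (1.10 ± 0.34, adjusted p = 0.00847) and on NWD1 (0.86 ± 0.34, adjusted p = 0.0401). Leaving out 1 array ended its NWD1 call in 7 of 8 fits and its wild-type call in 1 of 8. The chemokines Cxcl9 and Cxcl10, which attract activated T cells, were measured on 4 and 13 of the 47 arrays, and Bst2, which tethers budding virus, on 18. None of these 3 could be tested between tissues.

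**Figure D2:**
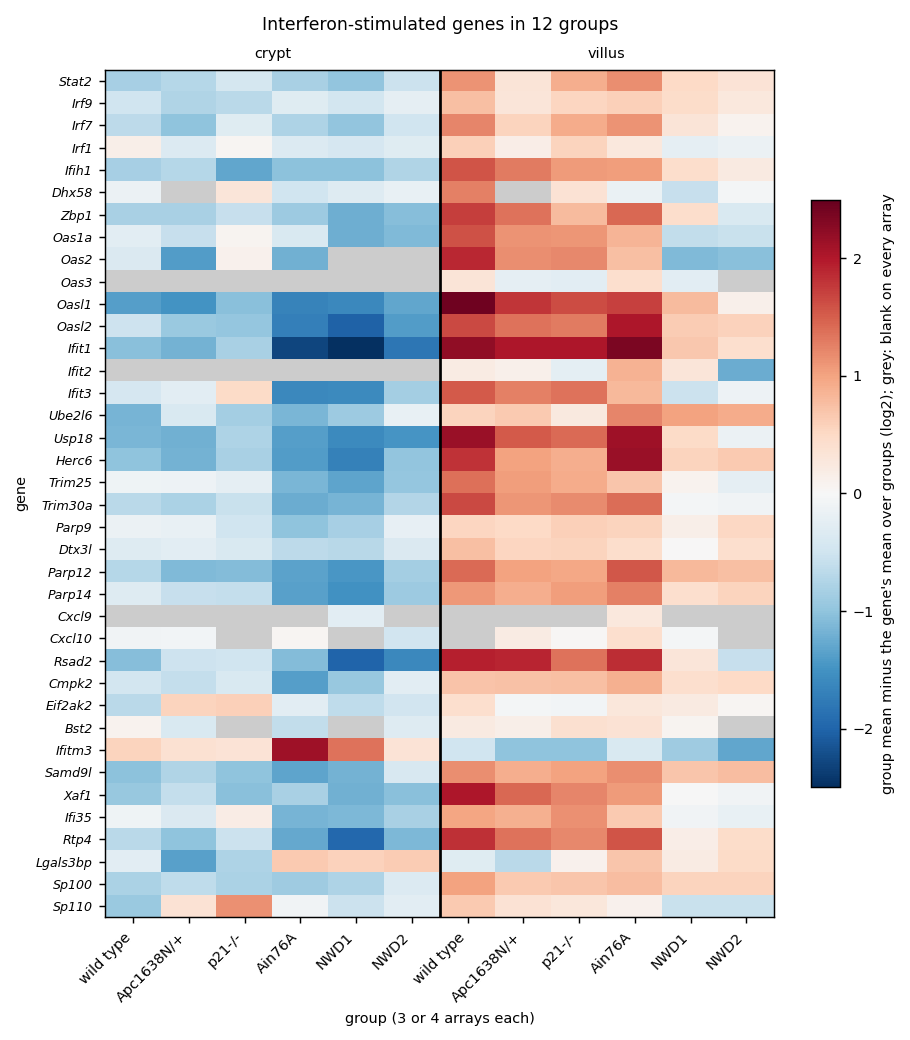
Mean normalized log2 signal of each interferon-stimulated gene (rows, ordered by role) in each of the 12 groups (columns), minus that gene's mean over the groups; grey cells had a value on no array. Most rows are above the gene's mean in the villus columns of wild type, Apc1638N/+, p21-/- and Ain76A and below it in the crypt columns, Ifitm3 is the reverse, and Oas3 and Ifit2 are grey in all crypt columns.

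Some pathway receptors and signalling genes, taken from lists chosen by function with earlier results of these data known, were also higher in villi. Of the 6 receptor chains, 3 of 6 tested were called higher in villi in wild type and 4 of 6 on Ain76A at 1 year, 4 of 6 on NWD1 and 1 of 6 on NWD2, and none was called lower, beside 25.6%, 25.7%, 19.7% and 5.04% of all genes called higher. Ifnlr1, the chain specific to lambda interferons, was higher by 1.41 ± 0.30 in wild type and 2.03 ± 0.32 on Ain76A at 1 year. Ifngr1, a chain of the gamma receptor, had estimates of -0.15 to 0.09 and was not called in any kind of mouse. Jak2 was higher by 1.85 ± 0.23 in wild type and 2.54 ± 0.23 on Ain76A at 1 year. Of 9 signalling genes tested in wild type, 5 were called higher in villi and 2 lower, beside 25.6% and 20.3% of all genes. On Ain76A at 1 year 5 were higher and 2 lower, on NWD1 2 and 1, and on NWD2 1 and 1, of 9 tested each time. The lower ones in wild type were Irf8 (-1.28 ± 0.24), a factor of myeloid and lymphoid cells, and Ptpn2 (-0.50 ± 0.19), a phosphatase that damps Jak signalling. Of 9 nucleic acid sensing genes 4 were called higher and 1 lower in wild type, 7 higher and 0 lower on Ain76A at 1 year, 4 and 0 on NWD1 and 1 and 0 on NWD2. In Apc1638N/+ mice 1 of 4 receptor chains, 6 of 9 signalling genes and 2 of 7 sensing genes were called higher in villi (20.1% of all genes). In p21-/- mice 2 of 3, 4 of 8 and 4 of 8 were, in the same order (22.4% of all genes). One signalling gene was called lower in each of these genotypes (20.9% and 23.4% of all genes). Of 9 interferon genes only Ifnb1 (10 of 47 arrays) and Ifng (19 of 47) had any value.

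Villi also carry intraepithelial lymphocytes, and lymphocyte markers were called higher in villi in some kinds of mice and not in others. In wild type at 3 months 10 of 10 lymphocyte markers tested were called higher in villi (median 3.10), and in Apc1638N/+ and p21-/- mice 8 of 8 and 5 of 5. Of 9 tested on Ain76A at 1 year, 5 were (median 1.23). On NWD1 0 of 10 were (median 0.07) and on NWD2 0 of 9 (median 0.06), while 25 of 30 and 14 of 31 interferon-stimulated genes were called higher in villi on those diets. Of 6 myeloid markers in wild type 3 were called higher in villi and 1 lower (median 1.03), and of 9 on Ain76A at 1 year 0 were higher and 3 lower (median -0.85). Summed lymphocyte signal on the linear scale ran from 94753 to 192438 on wild-type villus arrays and from 8809 to 43359 on wild-type crypt arrays. On NWD1 it ran from 10374 to 28439 in villi and from 15313 to 24275 in crypts, so that the tissues overlapped. On NWD2 it ran from 9251 to 11860 in villi and from 7497 to 23443 in crypts. Against Ain76A, the change in the tissue difference of lymphocyte markers passed for 0 of 9 on NWD1 and 0 of 8 on NWD2 in limma, with 2 and 1 at an unadjusted p under 0.05. The Lck probe set was blank on all arrays, and Cd3e was measured on 27. The part of lymphocytes in the tissue difference of interferon-stimulated genes was not tested in any kind of mouse.

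**Figure D3:**
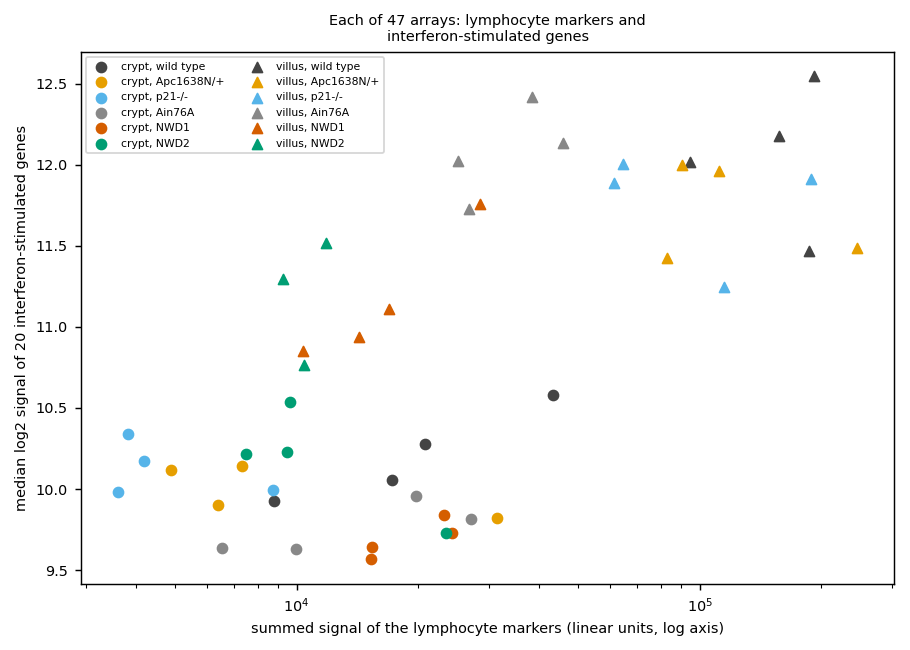
Each point is 1 of the 47 arrays, coloured by group, with the summed linear signal of the lymphocyte markers on a log axis (horizontal) and the median log2 signal of the 20 interferon-stimulated genes measured on every array (vertical). Villus arrays lie above crypt arrays of the same kind of mouse over a range of lymphocyte signal, including the diet arm, where NWD1 villi (10374 to 28439) and crypts (15313 to 24275) overlap on the horizontal axis.

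Under both NWD diets nearly all estimates of interferon-stimulated genes in villi lay below the Ain76A level, and few single genes passed the test. On NWD1 all 31 members tested had an estimate below 0 and the median was -0.73, beside -0.02 over all 9150 genes tested. Only Oas1a was called (1 of 31, 3.23% of them, beside 0.0109% of all genes called lower), and 21 of the 31 had an unadjusted p under 0.05, as did 463 of the 9150. Of all genes 3 rose and 1 fell, against 7 and 4 on the deposited scaling. On NWD2 30 of 31 had an estimate below 0 and the median was -0.84, beside 0.01 over all 8797 genes tested. Here 5 fell and 0 rose (0.352% of all genes were called lower): Rsad2, Usp18, Oas1a, Trim30a and Oasl1. None of the 5 passed with the replicate number as a block. Of the 31, 20 had an unadjusted p under 0.05, as did 1012 of the 8797. Both diets were compared with the same 4 Ain76A arrays, so the 2 results share their controls.

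Oas1a read 11.73, 11.83, 12.61 and 12.91 on the villus arrays of Ain76A, 10.41, 10.09, 11.81 and 10.89 on NWD1 and 10.80, 10.80 and 10.97 on NWD2. It fell by 1.47 ± 0.29 on NWD1 (adjusted p = 0.0236) and by 1.42 ± 0.31 on NWD2 (adjusted p = 0.0294). NWD1 array 3 reached into the range of Ain76A, and the NWD2 arrays lay below it. Rsad2 read 10.66, 10.94, 11.93 and 12.33 on Ain76A, 9.24, 9.08, 11.20 and 10.15 on NWD1 and 9.19, 9.13 and 8.80 on NWD2. It fell by 2.43 ± 0.50 on NWD2 (adjusted p = 0.0165, 5.37-fold), and its difference on NWD1 was -1.55 ± 0.46, adjusted p = 0.441. Its 2 other probe sets had NWD2 estimates of -1.97 and -2.45, both at an adjusted p of 0.0781 in limma over all probe sets.

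Usp18 read 10.26, 10.53, 11.42 and 11.66 on Ain76A, 8.69, 8.47, 10.57 and 9.55 on NWD1 and 8.57, 8.83 and 8.68 on NWD2. It fell by 2.27 ± 0.48 on NWD2 (adjusted p = 0.0199), and on NWD1 its difference was -1.65 ± 0.44, adjusted p = 0.249. All NWD2 arrays were below all Ain76A arrays, and 3 of 4 NWD1 arrays were. Trim30a read 10.11, 10.44, 10.92 and 11.34 on Ain76A, 9.08, 8.66, 10.35 and 8.95 on NWD1 and 8.95, 9.18 and 9.55 on NWD2. It fell by 1.47 ± 0.35 on NWD2 (adjusted p = 0.0400), its second probe set had an estimate of -1.17 there, and its NWD1 difference was -1.44 ± 0.32, adjusted p = 0.0710. Oasl1 read 12.06, 12.13, 13.01 and 13.19 on Ain76A, 10.91, 11.20, 11.97 and 12.60 on NWD1 and 10.74, 11.26 and 11.05 on NWD2. It fell by 1.58 ± 0.38 on NWD2 (adjusted p = 0.0451), and its NWD1 difference was -0.93 ± 0.35, adjusted p = 0.798. For these 3 genes the NWD2 arrays lay below every Ain76A array, and NWD1 arrays 3 or 4 were the highest of that diet.

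Members just outside the threshold on NWD2 were Ifit1 (-1.93 ± 0.48, adjusted p = 0.0527), Zbp1 (-1.82 ± 0.45, adjusted p = 0.0561), Ifi35 (-0.83 ± 0.21, adjusted p = 0.0561) and Oasl2 (-1.45 ± 0.38, adjusted p = 0.0664). By arrays, 19 of the 31 members were lower on every NWD2 array than on every Ain76A array (12.6% of all genes), and 9 of 31 were on NWD1 (3.48% of all genes). The NWD2 group has 3 arrays and the NWD1 group 4, so these 2 counts are not set against each other. Among roles, the synthetases tested had medians of -1.38 on NWD1 and -1.45 on NWD2 over 3 genes, and the Isg15 group -1.44 and -1.47 over 5. The Parp and Dtx3l group had medians of -0.59 and -0.37 over 4, with Parp9 and Dtx3l at -0.04 and -0.03 on NWD2. Estimates nearest 0 on NWD1 were those of Eif2ak2 (-0.06 ± 0.34) and Irf9 (-0.15 ± 0.24).

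**Figure D4:**
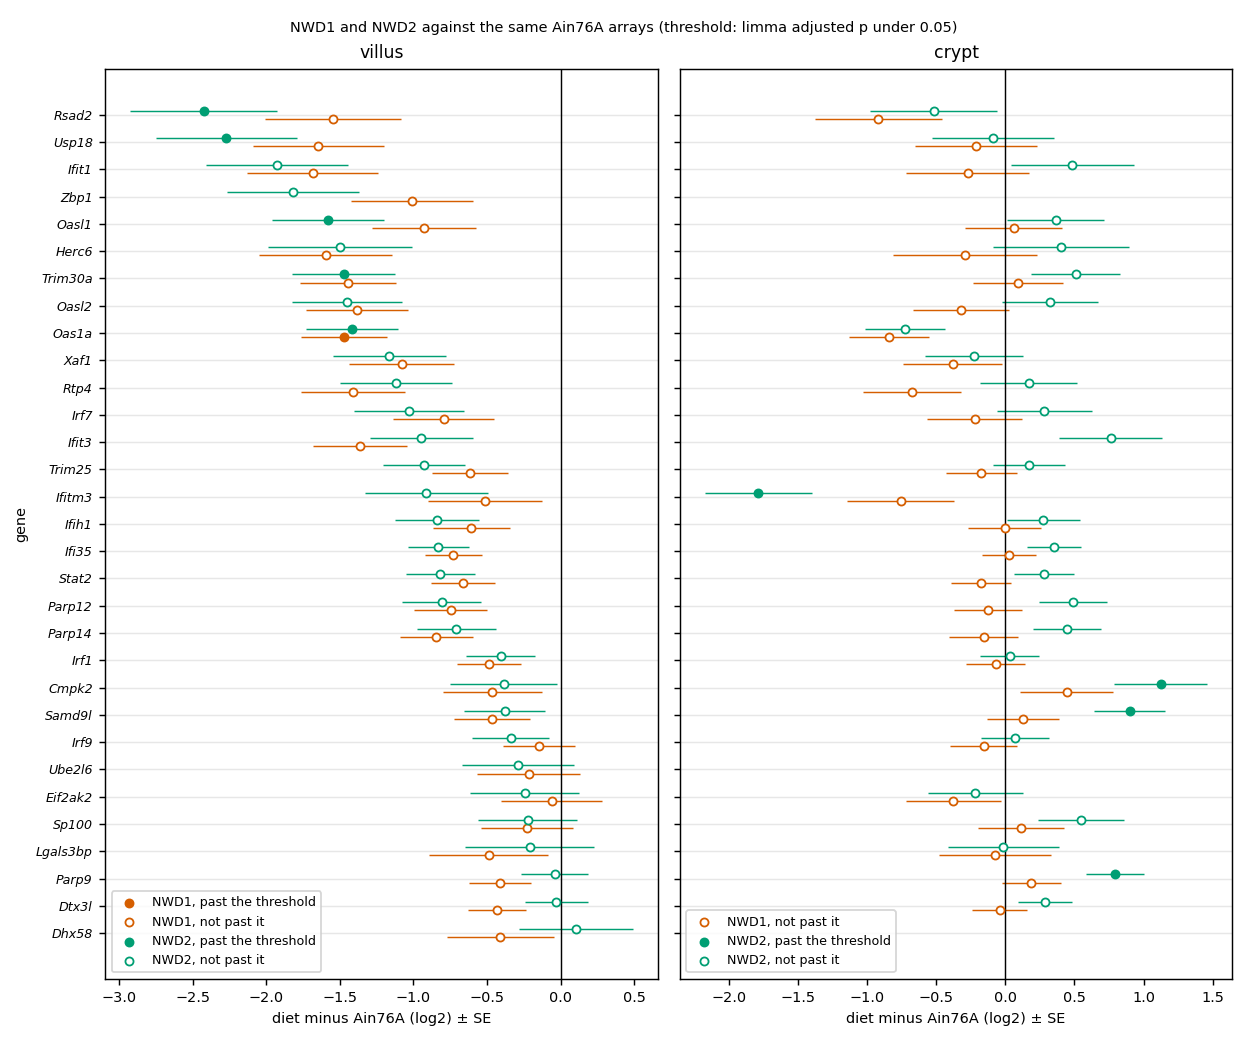
Log2 difference of each interferon-stimulated gene (rows) between NWD1 or NWD2 and the same Ain76A arrays, in villi and in crypts, with bars of ± SE from limma; filled points passed an adjusted p under 0.05. In villi all 31 points of NWD1 and 30 of 31 of NWD2 lie left of 0, while crypt points lie on both sides of it.

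The villus calls rested on single arrays. Without array 3 or array 4 of the Ain76A villi 0 members were called on either diet. On NWD1 the count was 0 without its villus array 1 or 2 and 7 without its array 3. On NWD2 it was 1 without its villus array 1 or 2 and 0 without its array 3, and it was 7 without Ain76A villus array 1. With blanks set to a floor the counts were 2 and 11, and with only the compared groups in the fit 0 and 13. Calls over all genes were not counted in those fits, so these counts are not set against a share of all genes. With the replicate number as a block, a number that does not pair these samples, 2 were called on NWD1 and 0 on NWD2, where all 5 calls were lost: adjusted p in limma was 0.0787 for Usp18, 0.0813 for Oas1a, 0.104 for Rsad2, 0.108 for Trim30a and 0.216 for Oasl1. Lymphocyte markers lay on the same side: in villi all 11 tested on NWD1 had estimates below 0 (median -0.77, 0 called), and all 9 on NWD2 (median -1.13). Of the latter 1 fell, Gzma (-1.93 ± 0.48), a granzyme of cytotoxic lymphocytes. The lymphocyte sum ran from 25137 to 45677 on Ain76A, from 10374 to 28439 on NWD1 and from 9251 to 11860 on NWD2. Enterocyte markers had medians of -0.07 and -0.10 in the same comparisons, with 1 of 18 fallen on NWD2, and proliferation markers 0.54 and 0.21. On NWD1, 2 of 5 Paneth cell markers rose in villi (median 2.36). With the tissue marker score in the model 8 members were called on NWD2, and calls over all genes were not counted in that fit. The part of lymphocytes in these estimates was not tested. None of the 6 receptor chains and none of 9 signalling genes was called in villi on either diet, and the median over receptors was -0.06 and -0.12.

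**Figure D5:**
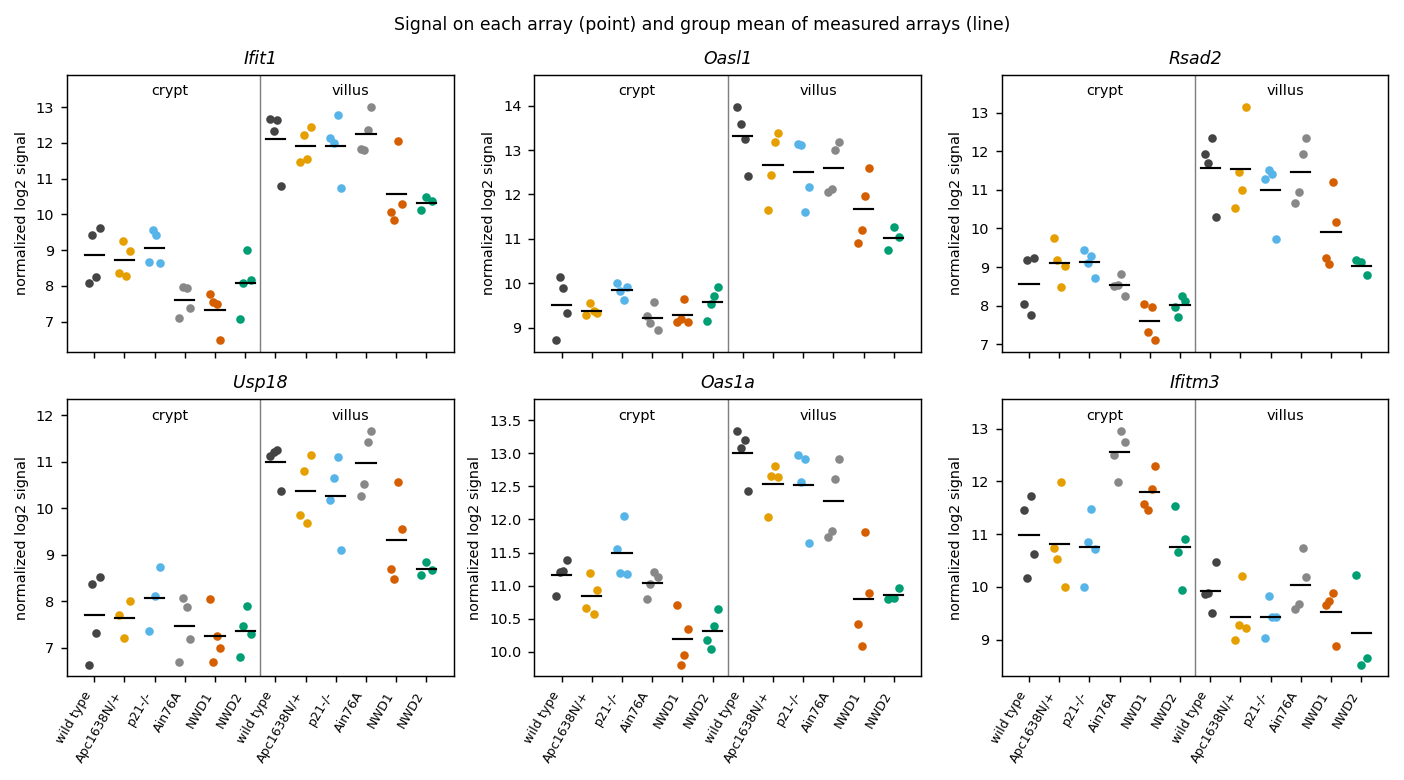
Normalized log2 signal of selected interferon-stimulated genes on each array (points) by group, with the mean of the measured arrays as a line. Rsad2 in villi reads 10.66 to 12.33 on Ain76A and 8.80 to 9.19 on NWD2, and Ifitm3 is higher in crypts than in villi.

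In crypts few members passed under either NWD diet. On NWD1 0 of 28 members were called, as were 0 of all 9609 genes in limma (0% called, 325 with an unadjusted p under 0.05, 1 of them a member). The smallest p-values were those of Oas1a (-0.84 ± 0.29), which read 10.79, 11.03, 11.20 and 11.13 on Ain76A and 10.71, 9.80, 9.94 and 10.33 on NWD1, Rsad2 (-0.92 ± 0.46) and Ifitm3 (-0.76 ± 0.39). Rsad2 read 8.52, 8.53, 8.81 and 8.26 on Ain76A and 8.05, 7.33, 7.96 and 7.10 on NWD1. Oas1a and Rsad2 did not overlap between these diets, as 4.96% of all genes did not in that direction, yet neither passed the adjustment over all genes (both at 1.00).

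On NWD2 3 of 29 members rose in crypts (5.07% of all genes rose) and 1 fell (3.06% of all genes fell). Parp9 read 9.96, 10.44, 9.94 and 10.11 on Ain76A and 10.50, 11.05, 11.31 and 10.77 on NWD2 (0.80 ± 0.21, adjusted p = 0.0139). Cmpk2 read 8.58, 8.81, 8.80 and 8.46 and 9.50, 9.92, 10.10 and 9.64 in the same order (1.13 ± 0.34, adjusted p = 0.0298). Samd9l read 9.39, 9.70, 9.21 and 9.29 and 9.57, 10.40, 10.90 and 10.31 (0.90 ± 0.26, adjusted p = 0.0229), with NWD2 array 1 inside the Ain76A range. Ifitm3 read 12.51, 12, 12.95 and 12.75 on Ain76A and 11.54, 10.67, 9.94 and 10.91 on NWD2 and fell by 1.79 ± 0.39 (adjusted p = 0.00266). These are genes that differ between the tissues, and each moved toward its villus level. Most members differ between the tissues, with 25 of 29 higher and 1 lower in villi on Ain76A at 1 year. The part of tissue mix in these calls was not tested. In the same crypts 11 of 18 enterocyte markers rose (median 1.28) and 7 of 18 proliferation markers fell (median -1.10). With the tissue marker score in the model 0 of the 29 members were called, with estimates of 0.38 for Parp9, 0.25 for Cmpk2, 0.43 for Samd9l and -0.78 for Ifitm3. All 4 had the same adjusted p of 0.996 in limma. Calls over all genes in that fit were not counted, so the 0 is not set against a share of all genes. The count of 4 was 1 without Ain76A crypt array 1 or 3 or NWD2 crypt array 2 or 3, and 2 without Ain76A crypt array 4. On the deposited scaling 614 genes rose and 131 fell, against 480 and 290, with the same member counts. Receptor chains Ifnar2 (0.97 ± 0.31) and Ifngr2 (1.28 ± 0.32) and the kinase Jak2 (0.82 ± 0.23), also higher in villi on Ain76A, rose in these crypts.

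Whether the diet effect differs between the tissues was tested as an interaction, the villus minus crypt difference on the diet less that on Ain76A. On NWD2 it was below 0 for 27 of 28 members, with a median of -1.17 beside 0.03 over all genes. It passed for Trim30a (-1.98 ± 0.48, adjusted p = 0.0460) and Ifi35 (-1.18 ± 0.29, adjusted p = 0.0466), 2 of 28 beside 0.452% of all genes called lower. On the deposited scaling 13 genes were called higher and 135 lower, against 9 and 38. Leaving out 1 array ended the call of Trim30a in 10 of 15 fits and that of Ifi35 in 11 of 15, and neither passed with blanks at a floor (adjusted p = 0.0847 and 0.0511 in limma). Ifi35 read 12.81, 12.52, 12.50 and 12.55 in crypts and 14.47, 14.34, 14.14 and 14.66 in villi on Ain76A, against 12.66, 12.96, 13.23 and 12.93 and 13.56, 13.66 and 13.51 on NWD2. Its villi were lower on NWD2 and its crypts overlapped. Crypts on NWD2 lay nearer to villi on the marker score (-1.26 to -3.53) than those on Ain76A (-0.73 to 0.44). Crypts on NWD1 ran from -1.68 to -0.36 on this score. The all-gene median pools genes higher in villi with genes higher in crypts. In this interaction receptor chains had a median of -0.90, nucleic acid sensing genes -0.79 and signalling genes -0.29. The marker score was not put in the interaction models, so its part in these estimates was not tested. On NWD1 0 of 27 members passed, as did 0 of all 8606 genes (235 with an unadjusted p under 0.05, 5 of them members), and the median was -0.62 beside 0.01. Over all 4 interactions tested, these 2 of the diets and 2 of the genotypes, 4 members passed, 9 with the replicate number as a block and 1 with blanks set to a floor. The smallest p-values on NWD1 were those of Trim30a (-1.53 ± 0.46), Ifi35 (-0.76 ± 0.28) and Usp18 (-1.43 ± 0.63).

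Few members passed in the comparisons of genotypes. In Apc1638N/+ crypts 0 of 27 passed (0.0497% of all genes were called in either direction), with a median of -0.13, and 4 members had an unadjusted p under 0.05, as did 999 of 8042 genes. The count was 2 without Apc1638N/+ crypt array 3. The smallest p-values were those of Eif2ak2 (1.22 ± 0.34, adjusted p = 0.128), Sp110 (1.29 ± 0.44, adjusted p = 0.204) and Lgals3bp (-1.09 ± 0.40, adjusted p = 0.235). Eif2ak2 read 8.23, 8.07, 8.42 and 8.55 in wild-type crypts and 9.30, 10.99, 8.83 and 9.03 in Apc1638N/+ crypts, without overlap (0.970% of all genes in that direction), and 1 array stood far above the rest. Sp110, a nuclear body protein, read 5.21, 6.59 and 7.31 on the 3 wild-type crypt arrays that measured it and 8.06, 7.92, 8.07 and 6.60 in Apc1638N/+ crypts. Lgals3bp read 11.22, 11.07, 12.48 and 11.81 in wild-type crypts and 10.09, 9.09, 12.42 and 10.62 in Apc1638N/+ crypts, and the groups overlapped.

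In Apc1638N/+ villi 0 of 34 passed (0.0246% of all genes were called in either direction, and 435 of 8122 had an unadjusted p under 0.05, 1 of them a member). The estimates were below 0 for 32 of 34 members, with a median of -0.38 beside -0.06 over all genes. Stat2 had the smallest p (-0.82 ± 0.22, adjusted p = 0.372) and read 10.00, 9.41, 10.24 and 9.68 in wild-type villi and 8.60, 8.96, 9.18 and 9.33 in Apc1638N/+ villi, without overlap (1.42% of all genes in that direction). Irf1 (-0.43 ± 0.22) and Irf7 (-0.68 ± 0.34) followed. Irf1 read 12.65, 12.01, 12.45 and 12.64 in wild type and 11.78, 11.78, 12.88 and 11.57 in Apc1638N/+, with 1 array of the latter above all others. Irf7 read 12.55, 12, 11.99 and 12.56 and 11.21, 11.24, 12.40 and 11.55, and the groups overlapped. All 13 lymphocyte markers tested also had estimates below 0 in these villi, with a median of -0.47 and 0 called. Their part in the estimates was not tested.

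In p21-/- villi 0 of 33 passed (0.0371% of all genes were called in either direction, and 890 of 8087 had an unadjusted p under 0.05, 3 of them members), with a median of -0.37 beside -0.01. The smallest p-values were those of Oasl1 (-0.80 ± 0.35, adjusted p = 0.417), Xaf1 (-0.80 ± 0.36, adjusted p = 0.418) and Zbp1 (-0.93 ± 0.42, adjusted p = 0.422). Oasl1 read 13.98, 13.60, 13.25 and 12.42 in wild-type villi and 13.15, 13.12, 11.60 and 12.16 in p21-/- villi. Xaf1 read 12.04, 12.25, 12.79 and 11.11 and 12.58, 10.94, 11.02 and 10.44, and Zbp1 read 10.74, 10.26, 10.86 and 10.01 and 8.95, 10.17, 10.04 and 8.98. The groups overlapped for all 3. The 13 lymphocyte markers tested had a median of -0.88 here, with 0 called.

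In p21-/- crypts 2 of 29 members rose and 0 fell (3.33% of all genes rose and 1.78% fell; on the deposited scaling 169 genes rose and 243 fell, against 251 and 134). With only the compared groups in the fit 0 members passed, as without wild-type crypt array 1, and 1 passed without p21-/- crypt array 1, 2 or 3. Sp110 was measured on 3 arrays of each genotype, at 5.21, 6.59 and 7.31 in wild type and 8.04, 8.80 and 8.48 in p21-/- (2.07 ± 0.47, adjusted p = 0.00969). Eif2ak2 read 8.23, 8.07, 8.42 and 8.55 in wild type and 10.03, 9.69, 9.29 and 9.34 in p21-/- (1.27 ± 0.34, adjusted p = 0.0250). Neither gene overlapped between genotypes, as 5.22% of all genes did not in that direction. The probe sets of Eif2ak2 disagreed: a second rose by 1.52 ± 0.31, and the third had an estimate of -0.60 ± 0.30. Xaf1 disagreed too, since the probe set used had an estimate of -0.10 ± 0.36 and its other probe set rose by 1.70 ± 0.39. In these crypts 3 of 5 lymphocyte markers fell (median -1.66) 4 of 7 Paneth cell markers rose (median 1.62) and 1 of 4 myeloid markers rose (median 1.06, all 4 estimates above 0), and their part in the 2 calls was not tested.

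The interaction with tissue was below 0 for both of these genes in p21-/- mice. It was -2.44 ± 0.64, adjusted p = 0.0426 for Sp110 and -1.77 ± 0.49, adjusted p = 0.0468 for Eif2ak2, 2 of 29 members beside 1.03% of all genes called lower. On the deposited scaling 215 genes were called higher and 73 lower, against 47 and 71. Leaving out 1 array ended the call of Eif2ak2 in 12 of 16 fits and that of Sp110 in 10 of 16. Neither passed with only the compared groups in the fit (adjusted p = 0.140 for Eif2ak2 and 0.148 for Sp110 in limma), and Sp110 did not pass with blanks at a floor (0.0690) or with the replicate number as a block (0.120). In Apc1638N/+ mice 0 of 27 members passed (0.0139% of all genes were called, and 462 of 7192 had an unadjusted p under 0.05, 2 of them members). The smallest p-values were again those of Eif2ak2 (-1.70 ± 0.49, adjusted p = 0.460) and Sp110 (-1.58 ± 0.62, adjusted p = 0.669), followed by Xaf1 (-0.96 ± 0.52, adjusted p = 0.784). Both genotypes were set against the same wild-type arrays, so these values share their controls. Without crypt arrays 2 and 4 of wild type the counts in crypts were 0 for Apc1638N/+ and 2 for p21-/-, where Eif2ak2 had an adjusted p of 0.0792 in limma.

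The 2 control groups on Ain76A, wild type at 3 months and at 1 year, differ in age and in study arm, which cannot be told apart. In crypts 6 of 29 members were lower at 1 year and 1 was higher (4.85% and 6.00% of all genes; on the deposited scaling 463 genes were lower and 315 higher, against 435 and 538), with a median of -0.29 beside 0.07. Ifi35 had the smallest p (-1.05 ± 0.19, adjusted p = 8.83e-04) and read 12.88, 14.61, 13.42 and 13.68 at 3 months and 12.81, 12.52, 12.50 and 12.55 at 1 year. With only the compared groups in the fit Ifi35 did not pass (adjusted p = 0.0603 in limma). Parp14 read 10.00, 10.67, 10.11 and 10.69 and 9.10, 9.40, 9.64 and 9.17 (-1.04 ± 0.25, adjusted p = 0.00643). Parp9 read 10.96, 10.96, 10.81 and 11.18 and 9.96, 10.44, 9.94 and 10.11 (-0.86 ± 0.21, adjusted p = 0.00756). None of the 3 overlapped between the ages, as 6.33% of all genes did not in that direction.

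Trim25 read 11.83, 12.76, 11.80 and 11.97 at 3 months and 11.00, 10.93, 11.09 and 11.18 at 1 year (-1.04 ± 0.26, adjusted p = 0.00843). Oasl2 read 9.00, 10.29, 9.86 and 9.95 and 7.99, 8.80, 8.74 and 8.82 (-1.19 ± 0.35, adjusted p = 0.0225), and Ifit3 differed by -1.19 ± 0.35, adjusted p = 0.0235. These were lower at 1 year, without overlap. Ifitm3 was higher at 1 year by 1.56 ± 0.39, adjusted p = 0.00850, with 11.45, 10.17, 11.72 and 10.63 at 3 months and 12.51, 12, 12.95 and 12.75 at 1 year. The 6 lower genes are higher in villi and Ifitm3 is higher in crypts. On the marker score 3-month wild-type crypts ran from -2.39 to 0.02, and 1-year crypts on Ain76A from -0.73 to 0.44. Most members differ between the tissues, with 27 of 30 higher and 1 lower in wild-type villi. The part of tissue mix in these calls was not tested. In the 1-year crypts 7 of 18 enterocyte markers were lower (median -0.82) and 3 of 18 proliferation markers higher (median 0.46). With the marker score in the model 2 members were called over both tissues, beside 8 without it. Calls over all genes in that fit were not counted. The estimates of lost calls with the score were -0.99 for Trim25 (from -1.04), -0.97 for Ifit3 (from -1.19), -0.70 for Parp14 (from -1.04), -0.63 for Parp9 (from -0.86), -0.64 for Oasl2 (from -1.19), 0.98 for Ifitm3 (from 1.56) and, in villi, -1.33 for Oas2 (from -1.15). The count of 8 was 4 without wild-type crypt array 2, 5 without crypt array 4, 13 without crypt array 1 and 15 without villus array 4. In villi 1 of 34 members was called, Oas2, which read 11.17, 10.04, 10.63 and 10.17 at 3 months and 8.86, 8.82, 9.56 and 10.20 at 1 year (-1.15 ± 0.39, adjusted p = 0.0481, 9.72% of all genes called lower). Its groups overlapped. In the same villi 12 of 12 lymphocyte markers were lower at 1 year (median -2.59), and their summed signal ran from 94753 to 192438 at 3 months and from 25137 to 45677 at 1 year. Their part in the call was not tested.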

How the data were processed

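Total RNA of 47 crypt and villus samples had been purified with a Qiagen kit, turned into biotinylated cRNA and hybridised to Affymetrix arrays, per the labels' protocols, and the data were processed with GCOS, per the submitters' processing notes, with version and scaling not given in the sources used here. The authors deposited log2 signals of 45101 probe sets, 55.2% of the cells blank for a reason no source used here gives. Probe sets with 1 gene symbol numbered 34945, those with several 932, those with none 9160, and 64 were controls.

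The deposited log2 values were quantile normalized, blanks kept. Each gene was read from its single-symbol probe set measured on the most arrays, ties going to the highest mean. All 12 groups entered 1 limma fit (limma 3.58.1, R 4.3.3) with empirical Bayes moderation, a gene being tested where 3 or more arrays of each group measured it, at a Benjamini-Hochberg adjusted p under 0.05. The scripts were tested on simulated data. Arrays limit the precision through their number. The members and all lists were chosen with earlier results of these data known. Values per array are given, where a comparison had calls, for the 6 members with the smallest adjusted p, at most 2 of a role, and for the 3 with the smallest p elsewhere, and a few further genes were named after their values were seen.

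Same-numbered crypt and villus samples deviated together on Ain76A at 1 year (correlations 0.13 to 0.29 over 4 pairs) and on NWD2 (0.29 to 0.49 over 3), which counts as paired, and not in every pair elsewhere. Alternatives changed the scaling, probe set, filter, blanks, samples in the fit, replicate block or marker score, and those leaving out 2 arrays were chosen after seeing the data. Promoters are those of RefSeq, GRCm38.p6.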

Additional observations from a re-analysis of the deposited data

Results flagged for a closer look

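In groups of 4 arrays, a highest or lowest array was set apart when its gap to the nearest other divided by the group's range exceeded Dixon's critical value. This held in 16 of 322 sets of a gene and a group (4.97%), and chance sets apart about 1 in 20. Villus array 4 of wild-type mice accounted for 5 of the 16, being the lowest for Ifih1 (11.65), Usp18 (10.38), Herc6 (9.31), Parp9 (11.24) and Dtx3l (10.99). Crypt arrays on Ain76A at 1 year gave 5 more: array 1 was lowest for Oasl2 (7.99) and Xaf1 (9.05) and highest for Ifi35 (12.81), array 2 was highest for Rtp4 (9.69), and array 4 was lowest for Irf7 (9.94). Irf1 stood apart in 3 groups, at 11.47 on crypt array 1 of wild type, 12.88 on villus array 3 of Apc1638N/+ and 11.32 on crypt array 1 of NWD2. The others were Oasl1 on crypt array 3 of NWD1 (9.65), Rsad2 on villus array 4 of p21-/- (9.72) and Sp110 on crypt array 4 of Apc1638N/+ (6.60).

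The villus minus crypt difference itself differed between kinds of mice, by the interaction in limma, for 4 members. In p21-/- mice it differed from that of wild type by -1.77 for Eif2ak2 and -2.44 for Sp110. On NWD2 it differed from that on Ain76A by -1.98 for Trim30a and -1.18 for Ifi35. The crypts on NWD2 lay nearer to villi on the marker score than those on Ain76A, and the part of this was not tested. Leaving out 1 array ended these calls in most fits: in 12 of 16 for Eif2ak2, 10 of 16 for Sp110, 10 of 15 for Trim30a and 11 of 15 for Ifi35.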

How the results depend on the processing

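No member call changed direction under any of the alternatives run. Of 1362 pairs of a call and a left-out array, 1190 still passed, as did 166 of 169 calls on the deposited scaling, 156 of 156 with the highest-mean probe set, 161 of 163 with dim genes filtered, 149 of 150 with genes measured on every array, 159 of 169 with blanks at a floor, 157 of 169 with only the compared groups in the fit, 160 of 169 with the replicate number as a block and 9 of 20 with the tissue marker score. Counts that moved were as follows, with the cause not tested. Deposited scaling gave 2 calls in NWD1 villi, 9 in NWD2 villi and 9 over the interactions. In NWD2 villi 59 of all genes were called lower on that scaling, against 31. The dim filter and the rule of every array each gave 1 in p21-/- crypts and 2 over the interactions, where fewer genes are tested. Blanks at a floor gave 2 in NWD1 villi, 11 in NWD2 villi and 1 over the interactions. Only the compared groups gave 0 in p21-/- crypts and NWD1 villi, 13 in NWD2 villi and 18 over the interactions. The replicate block gave 2 in NWD1 villi, 0 in NWD2 villi and 9 over the interactions, and it moved no other count by over 1.5 times. The marker score gave 0 in NWD2 crypts, 8 in NWD2 villi and 2 for age and arm. Calls over all genes were not counted with the score, the floor, the block or only the compared groups. Leaving out 1 array gave 26 to 29 calls between tissues in wild type, 24 to 25 in Apc1638N/+ and in p21-/-, 25 to 26 on Ain76A, 23 to 26 on NWD1 and 4 to 17 on NWD2. It gave 0 to 2 in Apc1638N/+ crypts, 0 to 3 in p21-/- crypts, 1 to 5 in NWD2 crypts, 0 to 7 in the villi of each NWD diet, 4 to 15 for age and arm and 0 to 13 over the interactions. The median of all genes moved by over 0.1 on the deposited scaling in wild-type tissues (0.11 to -0.04), NWD2 tissues (0.04 to -0.08), p21-/- crypts (0.03 to -0.13) and the interactions of Apc1638N/+ (0.00 to 0.15) and p21-/- (0.00 to 0.23). Without NWD2 crypt array 3 and villus array 1, which lie toward the other tissue and were chosen after seeing the data, 19 members passed on NWD2. Blank cells limit what can be said of Oas2, Oas3, Ifit2, Bst2, Cxcl9, Cxcl10 and Dhx58.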
